A study of Mus musculus with 20 samples.

Results

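The clustered protocadherins are adhesion proteins of the neuronal surface, encoded by 3 gene arrays named alpha, beta and gamma that follow each other on mouse chromosome 18. The genes described here were the protein-coding entries of the count table whose symbol is Pcdha, Pcdhac, Pcdhb, Pcdhga, Pcdhgb or Pcdhgc followed by a number. They came to 56 of the 25190 genes counted, with 13 in the alpha, 22 in the beta and 21 in the gamma cluster. Members were selected by gene name alone, while the family was taken up with earlier results of these data known.

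Each alpha or gamma gene has a large variable first exon with its own promoter, spliced to a short set of constant exons at the end of the cluster, while each beta gene is read from a single large exon of its own. The variable exon encodes the cadherin repeats outside the cell and the membrane span, and the constant exons encode a shared tail inside the cell. A neuron is known to use a small set of alpha, beta and gamma A or B genes, chosen largely at random through promoter choice, whereas the C-type genes at the ends of the alpha and gamma arrays are used more evenly by many cells. The proteins bind identical partners on other cells, and they are known for self-avoidance of dendrites and axons, for neuronal survival and for synapse formation.

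The libraries were made from the hippocampus of wild-type C57BL/6JOlaHsd males, 4 months old by the sample labels, with 5 libraries in each of 4 groups. Every mouse, Vehicle mice included, carried bilateral cannulas aimed at the dorsal hippocampus, was infused on 2 occasions, went through behavioural tests and was killed 24 hours after the last of them. Vehicle mice received the carrier fluid alone, Control mice received small RNAs (sRNAs) pooled from the hippocampi of unaffected people, while patients with schizophrenia, in separate sets, were the source of the pooled sRNAs given to Pool 1 and Pool 2 mice. Each of the 3 sRNA groups was infused with a single pool, so a group stands for that pool and not for its donors, and no mouse gene was targeted.

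Each library held 20588280 to 25543939 counts, of which the 56 genes took 9300 to 16664 counts, or 0.0452 to 0.0665%. The summed markers of CA1 pyramidal neurons lay between 632 and 1377 CPM (counts scaled to a library of 1000000) and those of dentate granule cells between 300 and 768 CPM, so both neuronal layers were present in every library. Pool 2 replicate 1 stood apart, with 795 CPM summed over 6 microglial markers against 255 to 388 CPM in the other 19 libraries, and 3063 CPM over 6 astrocyte markers against 1369 to 2032. It was lowest in 6 interneuron markers (609 CPM against 709 to 930) and in 6 neocortical markers (128 against 139 to 184). Its CA1 (1030 CPM) and dentate (458) sums lay within the range of the others. Vehicle replicate 4 stood apart in choroid plexus markers, with 12377 CPM against 249 to 3376. In bulk tissue, fewer cells that use a gene and less RNA of that gene per cell cannot be told apart.

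On GRCm38 the alpha cluster spanned 257.5 kb (chr18:36930184-37187661), the beta cluster 259.5 kb (chr18:37264938-37524479) and the gamma cluster 180.1 kb (chr18:37661793-37841873). The counting kept reads that overlapped exactly 1 annotated gene, and every alpha gene shares its 3 constant exons of 59, 89 and 2712 bases with the rest of its cluster, as every gamma gene shares its own of 59, 89 and 1971 bases. A read from a constant exon could therefore be given to no gene, and the values of the alpha and gamma genes came mostly from their variable exons. The exon bases that no other gene overlapped on the same strand were 40.1 to 61.1% of an alpha gene and 33.2 to 68.5% of a gamma gene, against 90.3 to 100% of a beta gene.

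The annotation listed 58 genes of these families, and 2 of them were not among the 56. Pcdha4 had no entry in the table, and 2410 of the 2904 bases of its variable exon were shared with Gm42416, a read-through model that spans the 3 clusters. Pcdhgb8 was typed as a polymorphic pseudogene, and its level was 0.992 ± 0.265 CPM (SD, 20 libraries). A pair of entries carried the symbol Pcdha11. The first (ENSMUSG00000007440.10) begins where RefSeq places Pcdha10, and the second (ENSMUSG00000102206.5) begins where RefSeq places Pcdha11. By position the first entry is thus Pcdha10, under the deposited symbol Pcdha11. The second was the only member with unshared bases in the constant part, so its level is not that of a variable exon alone. They are called the first and the second Pcdha11 entry below, after the deposited symbol, and are separate genes.

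Levels of different genes were compared as CPM per kb of unshared exon, averaged over the 20 libraries. By this measure the gamma genes were highest, with a median of 3.91 CPM per kb, followed by the beta genes with 1.48 and the alpha genes with 0.977. The unshared bases of alpha and gamma genes lie almost wholly before the constant exons, whereas nearly all of a beta gene is unshared. The libraries were made from polyadenylated RNA, and the part of this difference in the order of the clusters was not tested. Above 2 CPM per kb were 19 of 21 gamma genes, 5 of 22 beta genes and 2 of 13 alpha genes. The C-type genes Pcdhgc5 (19.8 ± 2.67 CPM per kb), Pcdhgc3 (18.5 ± 2.72) and Pcdhac2 (11.4 ± 2.14, SD over 20 libraries) led the whole family. These 3 lie at or near the ends of their arrays. Pcdhgc5 was above Pcdhgc3 in 15 of 20 libraries, so their order is within the spread, whereas Pcdhgc3 was above Pcdhac2 in all 20.

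**Figure D1:**
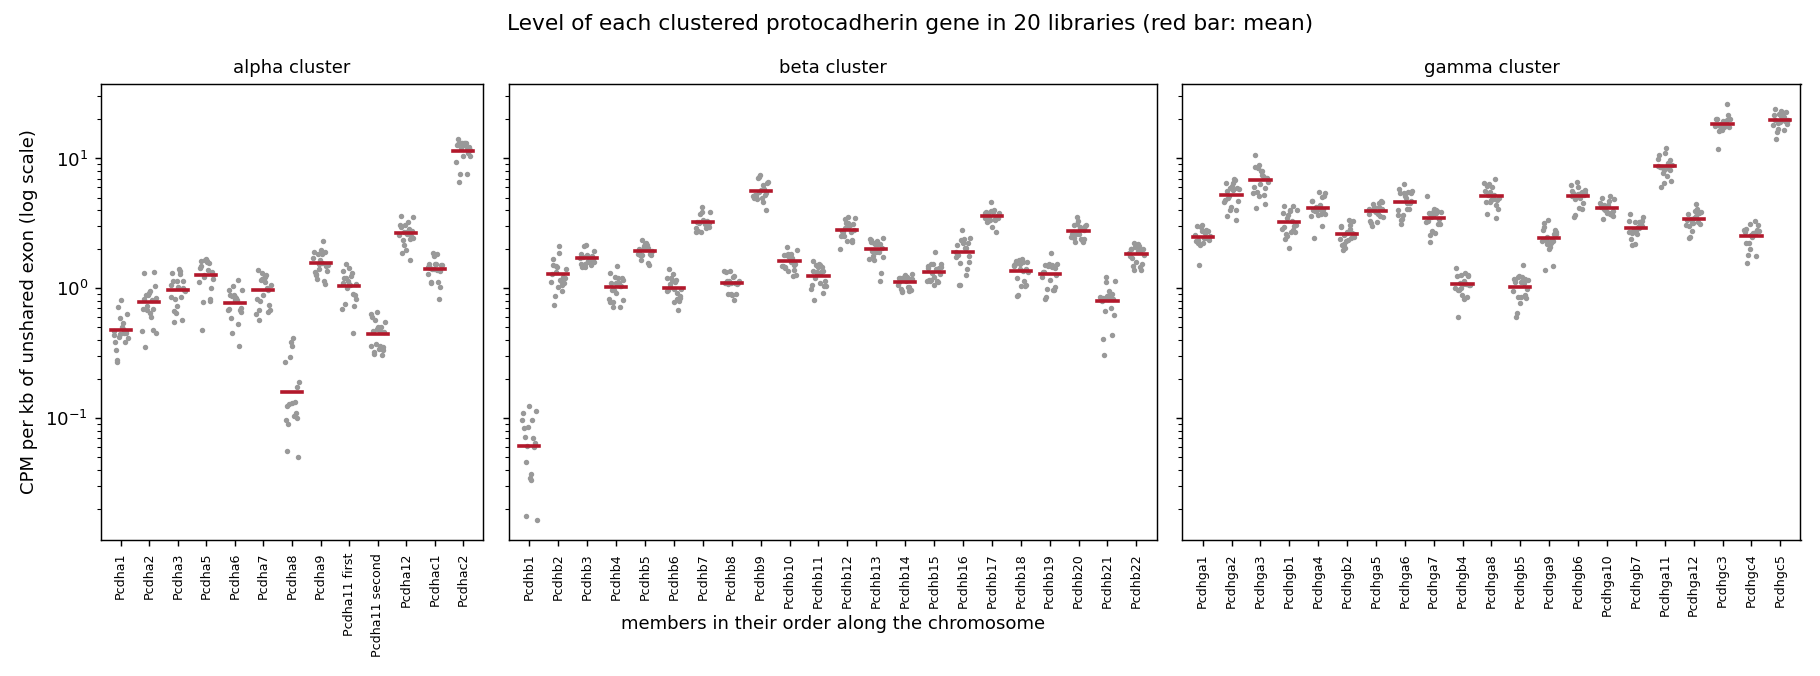
CPM per kb of unshared exon (log axis) of the 56 members in chromosomal order, with 1 grey point per library and the mean of 20 libraries as a red bar. The 4 values of 0, of Pcdha8 and Pcdhb1, are not drawn. Pcdhac2, Pcdhgc3 and Pcdhgc5 stand above the rest of their clusters.

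The C-type genes were not uniform. Pcdhac1, the neighbour of Pcdhac2, reached 1.40 ± 0.271 CPM per kb and Pcdhgc4, which lies between Pcdhgc3 and Pcdhgc5 and is the gamma gene known to be needed for neuronal survival, reached 2.54 ± 0.463. Both were within the range of the other members of their clusters. Without the C-type genes the gamma cluster still had a median of 3.69 CPM per kb over 18 genes and the alpha cluster 0.969 over 11.

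After the C-type genes, the highest gamma gene was Pcdhga11 (8.69 ± 1.51 CPM per kb). The highest beta genes were Pcdhb9 (5.63 ± 0.908), Pcdhb17 (3.59 ± 0.416) and Pcdhb7 (3.24 ± 0.416), and the highest alpha genes after Pcdhac2 were Pcdha12 (2.65 ± 0.521) and Pcdha9 (1.57 ± 0.326). In the order of all 56 levels, the higher of a neighbouring pair was higher in every library in 1 of 55 pairs, and in 15 or more libraries in 10 pairs. Most neighbours in that order therefore did not differ beyond their spread.

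Position along the array was related to level in the alpha cluster, where Spearman's rho between order and level was 0.53 over 13 genes. Without Pcdhac1 and Pcdhac2 it was 0.27 over 11. It was 0.22 over the 22 beta genes and 0.17 over the 21 gamma genes, or −0.02 over the 18 gamma genes outside the C type. Gamma A genes (12, median 4.18 CPM per kb) and gamma B genes (6, median 2.77) are interspersed along the array, and their ranges of 2.43 to 8.69 and 1.03 to 5.13 overlapped.

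The lowest members were Pcdhb1, with 0 to 8 counts per library and 0.159 ± 0.0969 CPM, and Pcdha8, with 0 to 24 counts and 0.398 ± 0.301 CPM. Each was at 0 in 2 libraries, and Pcdhb1 was at or under 3 counts in 8 of 20. The lowest gamma gene by CPM, though not per kb, was Pcdhgb4, which still had 46 to 119 counts and 3.85 ± 0.705 CPM. The remaining 54 members had at least 10 counts in every library, and all 56 were tested.

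Few genes carried a large part of the counts of the alpha and gamma clusters. Pcdhac2 alone held 52.4% of the alpha counts over the 20 libraries, and the next gene, Pcdha12, held 9.92%. In the gamma cluster Pcdhgc5 held 25.5% and Pcdhgc3 17.5%. The beta counts were spread more evenly, with 10.5% for Pcdhb9 and 10.2% for Pcdhb17. Of the summed counts of the 56 genes, the gamma cluster took 56.7 to 65.5% in each library, the beta cluster 24.6 to 33.5% and the alpha cluster 8.33 to 12.6%.

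The summed alpha level was 64.4 ± 15.4 CPM in Vehicle, 66.3 ± 10.8 in Control, 72.9 ± 6.00 in Pool 1 and 61.0 ± 10.5 in Pool 2 mice (SD, n = 5 each). For the beta cluster the sums were 159 ± 10.5, 170 ± 21.3, 168 ± 13.7 and 158 ± 17.9 CPM. For the gamma cluster they were 350 ± 64.0, 337 ± 33.6, 382 ± 9.94 and 360 ± 24.9 CPM. Each pair of groups overlapped in each cluster.

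**Figure D2:**
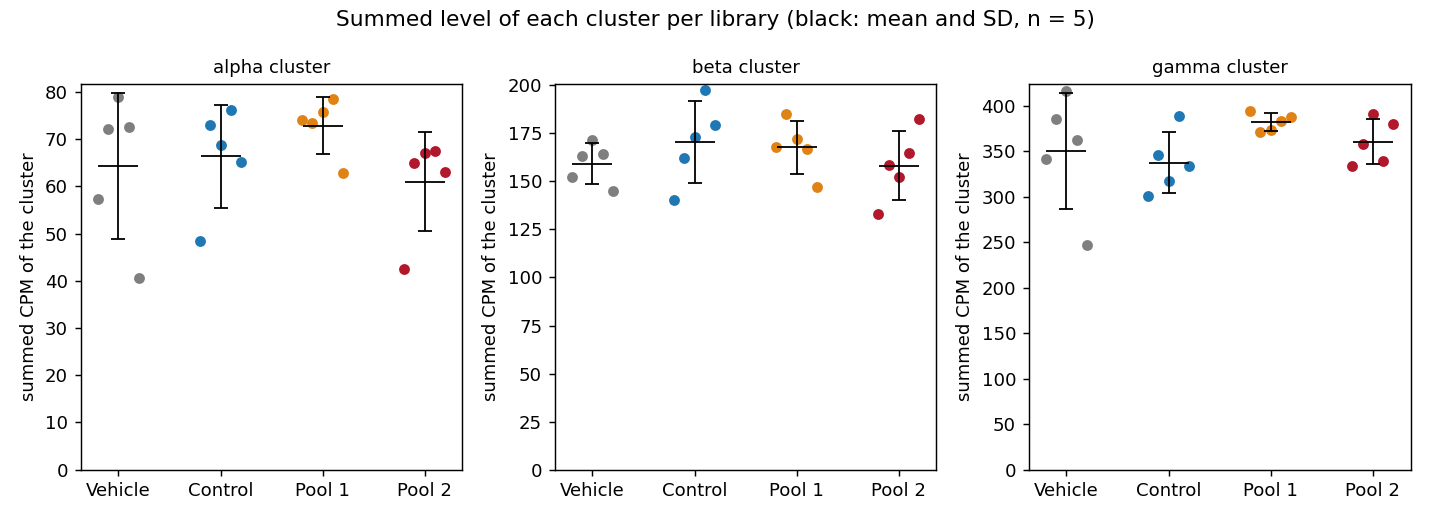
Summed CPM of the alpha, beta and gamma members in each library by group, with mean and SD (n = 5) in black. The 5 Pool 1 libraries lie between 370 and 394 CPM in the gamma cluster, and the lowest alpha sums are those of Vehicle replicate 5 (40.7 CPM), Pool 2 replicate 1 (42.4) and Control replicate 1 (48.5).

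Single libraries set much of that spread, and the clusters tended to move together. Over the 20 libraries the summed alpha level correlated with the gamma (Pearson's r = 0.76) and with the beta level (r = 0.72), and the beta with the gamma level (r = 0.44), with Spearman's rho of 0.62, 0.67 and 0.32. Without the 2 libraries farthest from the median on the second of each pair, Pearson's r was 0.52, 0.64 and 0.21. The libraries share a scaling and depth, so the values are a description.

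The sums also moved with the balance of long and short transcripts in a library. This balance was the median log2 level of 793 coding genes with transcripts of at least 8000 bases minus that of 2925 coding genes with transcripts under 2000 bases, each gene taken relative to its mean over the libraries and protocadherins left out. It correlated with the alpha sum at r = 0.64, the beta sum at 0.69 and the gamma sum at 0.51 (20 libraries), and at 0.60, 0.59 and 0.61 without the 2 libraries farthest from its median. It was lowest in Control replicate 1 (−0.65), Pool 1 replicate 5 (−0.57) and Vehicle replicate 5 (−0.41). The group means were 0.10 in Vehicle, −0.11 in Control, 0.06 in Pool 1 and −0.06 in Pool 2, with SDs of 0.29, 0.38, 0.37 and 0.23. It was also used as a covariate, with the values given beside each comparison. The share of counts from small and ribosomal-type RNA genes was 0.0660 to 0.491% in Vehicle, 0.0565 to 0.174% in Control, 0.166 to 1.28% in Pool 1 and 0.329 to 0.878% in Pool 2 libraries. Every Pool 2 library was above every Control library in this share, and its part in the comparisons below was not tested.

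**Figure D3:**
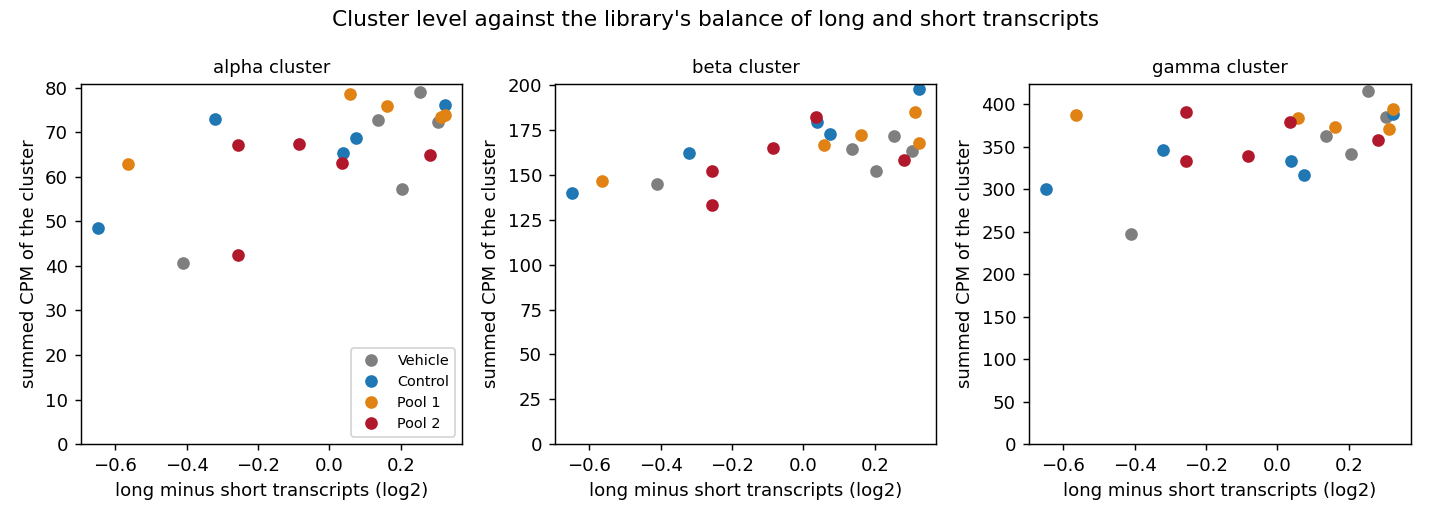
Summed CPM of each cluster against the balance of long and short transcripts (log2 difference), with 1 point per library coloured by group. Control replicate 1 at −0.65 and Vehicle replicate 5 at −0.41 have low alpha and beta sums. Control replicate 2 at −0.32 has an alpha sum of 73.0 and a beta sum of 162 CPM, and Pool 1 replicate 5 at −0.57 keeps a gamma sum of 387 CPM.

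Pool 1 and Control mice were compared to ask what the sRNAs of this patient pool changed beyond sRNAs of unaffected people. The terms upregulated and downregulated are used where the Log2 Fold Change reached 0.3 in size and edgeR's quasi-likelihood test gave an unadjusted p under 0.05, and such genes are said to be called. In Pool 1 mice 3 of 56 members were upregulated and none was downregulated, where 3.48% of all genes were called, 1.48% as upregulated and 1.99% as downregulated. They were Pcdha3 in the alpha cluster and Pcdhga2 and Pcdhga12 in the gamma cluster. No member, and no gene of the table, had an adjusted p under 0.05 in edgeR, while 4 members had an unadjusted p under 0.05. DESeq2 also gave no member and 7 other genes.

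Pcdhga12, the last A-type gene of the gamma array, was at 15.9, 17.9, 16.4, 20.3 and 18.6 CPM in the 5 Pool 1 libraries and at 11.4, 15.4, 12.6, 14.5 and 14.6 CPM in the Control libraries. Every Pool 1 library was above every Control library, as was so for 0.512% of all genes. Of the 56 members, 1 had groups that did not overlap in either direction, against 0.861% of all genes. The Log2 Fold Change was 0.38 ± 0.11 (SE), with an unadjusted p of 0.00265 and an adjusted p of 0.917 in edgeR's quasi-likelihood test.

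Pcdhga2, near the start of the array, was at 15.7, 14.8, 16.5, 17.8 and 17.6 CPM in Pool 1 and at 12.9, 13.2, 10.4, 15.3 and 10.8 CPM in Control. Control replicate 4 reached into the Pool 1 range and the other 4 Control libraries lay below it. This gave a Log2 Fold Change of 0.40 ± 0.15, with an unadjusted p of 0.0160 and an adjusted p of 0.917 in edgeR. Vehicle was at 12.9 ± 2.76 CPM (SD, 5 libraries), with a range of 9.31 to 16.7 that overlapped Pool 1.

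Pcdha3 was at 2.55, 3.50, 3.35, 3.19 and 2.12 CPM in Pool 1 and at 1.65, 2.06, 1.61, 2.82 and 1.81 CPM in Control. The groups overlapped, with 3 Pool 1 libraries above every Control library. Vehicle was at 2.43 ± 0.724 CPM (SD, 5 libraries), with a range of 1.35 to 3.23, and Control had the lowest mean of the 4 groups. Control minus Vehicle was −0.28 ± 0.23 (SE) on the log2 scale, which was not called. Pool 1 exceeded Control by a Log2 Fold Change of 0.55 ± 0.23, with an unadjusted p of 0.0244 and an adjusted p of 0.917 in edgeR. This call was lost without Control replicate 1 (0.49), Control replicate 3 (0.49), Pool 1 replicate 2 (0.48) or Pool 1 replicate 3 (0.50), while the gamma calls were kept in every alternative tried.

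By cluster, 19 of 21 gamma members had a Log2 Fold Change above 0 in Pool 1, with a median of 0.14, against 48.9% of all genes with a median of −0.01. The alpha cluster had 8 of 13 above 0 (median 0.09) and the beta cluster 11 of 22 (median 0.01). Without Control replicate 1 the gamma cluster had 16 of 21 above 0 (median 0.10) and the alpha median was −0.05. With the balance of long and short transcripts as a covariate the medians were 0.11 in the gamma, −0.10 in the alpha and −0.06 in the beta cluster. These are descriptions of the lists, since members of a cluster share libraries and are not replicates. Marker sums also moved between these libraries. Those of 6 thalamic markers were 111 to 221 CPM in Control and 85.6 to 128 in Pool 1. For 6 astrocyte markers they were 1638 to 2030 and 1436 to 1673. For 6 CA1 markers they were 697 to 1350 and 675 to 1377, with medians of 980 and 1297. The part of these sums in the medians of the clusters was not tested.

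The abundant C-type genes did not pass the threshold in Pool 1. Pcdhgc5, a late-onset gene of the mature brain, was at 100 ± 5.23 CPM in Pool 1 and 85.2 ± 10.6 in Control (SD, 5 libraries each), a Log2 Fold Change of 0.24 ± 0.11 (SE). Its unadjusted p was 0.0483 and its adjusted p 0.917 in edgeR, and its fold was under the threshold. Without Control replicate 4 its Log2 Fold Change was 0.30 and it was called. Pcdhac2 had a Log2 Fold Change of 0.19 ± 0.17, Pcdhgc3 of 0.13 ± 0.11, Pcdhgc4 of 0.22 ± 0.17 and Pcdhac1 of −0.03 ± 0.19.

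Pool 2 and Control mice were compared in the same fit and share the Control libraries with the comparison above. Of the 56 members, 1 was upregulated and 2 were downregulated, where 6.22% of all genes were called, 5.2% as upregulated and 1.01% as downregulated. The upregulated gene was Pcdhgc3 and the downregulated genes were the first Pcdha11 entry (Pcdha10 by its RefSeq position) and Pcdhb6. With DESeq2's size factors in edgeR the split was 0 up and 2 down, and with DESeq2 it was 0 up and 3 down. No adjusted p of a member was under 0.05, the smallest being 0.479 in edgeR, while 4 members had an unadjusted p under 0.05 in edgeR and 6 in DESeq2. Over all genes, 0 had an adjusted p under 0.05 in edgeR and 18 in DESeq2.

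**Figure D4:**
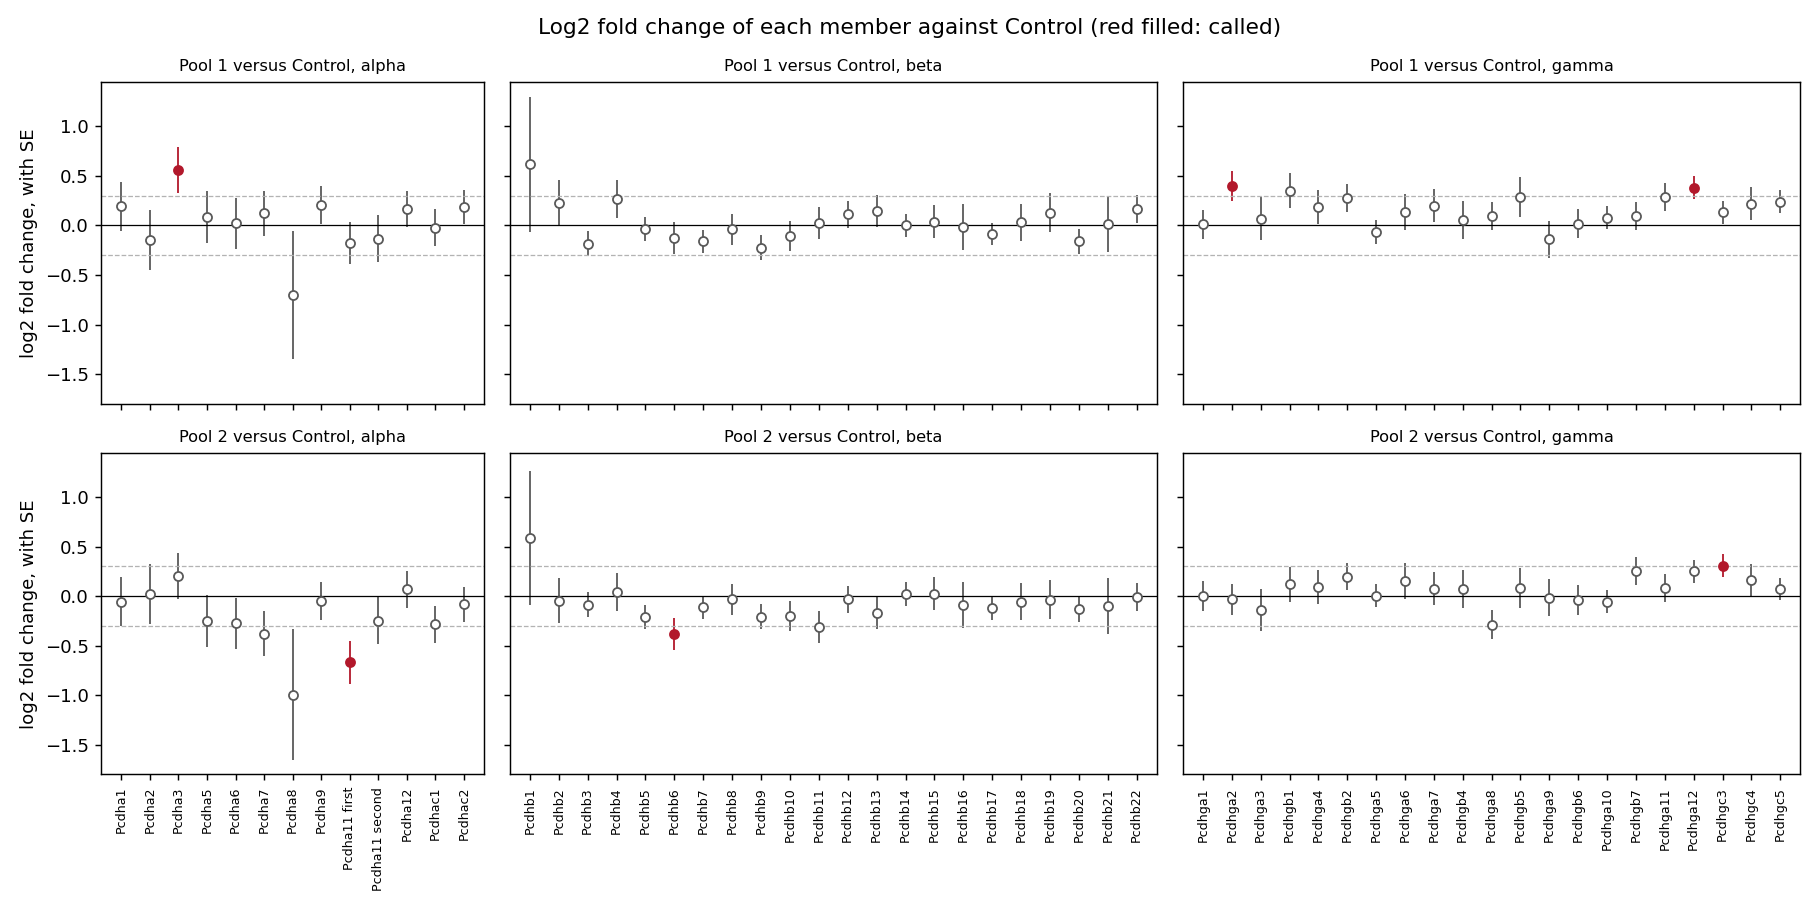
Log2 Fold Change with SE of the 56 members against Control, Pool 1 in the upper and Pool 2 in the lower panels, in chromosomal order, with called members filled in red and dashed lines at 0.3 and −0.3. In Pool 1, 19 of 21 gamma members lie above 0, and in Pool 2, 10 of 13 alpha and 18 of 22 beta members lie below 0.

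The first Pcdha11 entry was at 1.14, 1.83, 2.21, 2.71 and 2.06 CPM in the 5 Pool 2 libraries and at 3.00, 3.85, 2.53, 2.86 and 3.58 CPM in the Control libraries. Pool 2 replicate 4 lay within the Control range and the other 4 lay below it. The Log2 Fold Change was −0.67 ± 0.22 (SE), with an unadjusted p of 0.00532 and an adjusted p of 0.479 in edgeR's quasi-likelihood test. The call was kept in all alternatives, and without Pool 2 replicate 1 the value was −0.52. In Vehicle this entry was at 2.56 ± 0.714 CPM (SD, 5 libraries), with a range of 1.73 to 3.38. Control had the highest mean of the 4 groups. It exceeded Vehicle by 0.31 ± 0.21 (SE) on the log2 scale, which was not called. The second Pcdha11 entry, a separate gene by its RefSeq position, had a Log2 Fold Change of −0.25 ± 0.24.

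Pcdhb6 was at 2.56, 3.00, 3.17, 3.30 and 3.69 CPM in Pool 2 and at 3.84, 4.52, 4.33, 4.81 and 2.96 CPM in Control. The low value of Control replicate 5 made the groups overlap, and the other 4 Control libraries were above all of Pool 2. On the log2 scale the difference was −0.38 ± 0.16, with an unadjusted p of 0.0275 and an adjusted p of 0.580 in edgeR. The call was lost without Control replicate 2 (−0.34), 3 (−0.36) or 4 (−0.33), or Pool 2 replicate 1 (−0.32) or 2 (−0.36). In Vehicle the gene was at 4.22 ± 0.707 CPM (SD, 5 libraries), with a range of 3.58 to 5.31 that overlapped Pool 2.

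Pcdhgc3, known for its role in dendrite branching, was at 88.1, 66.6, 72.6, 59.3 and 68.0 CPM in Pool 2 and at 54.8, 55.6, 57.0, 62.5 and 56.4 CPM in Control. Pool 2 replicate 1 was the highest of the 20 libraries and Pool 2 replicate 4 lay within the Control range. Vehicle was at 59.6 ± 11.6 CPM (SD, 5 libraries), with a range of 39.9 to 68.4 that overlapped Pool 2. Pool 2 exceeded Control by a Log2 Fold Change of 0.31 ± 0.11, with an unadjusted p of 0.0122 and an adjusted p of 0.517 in edgeR. Without Pool 2 replicate 1, the library with the most microglial and astrocyte marker RNA, the value was 0.22 and the gene was not called. It was not called either without Control replicate 1 (0.29), Control replicate 2 (0.30) or Pool 2 replicate 3 (0.30). The fold also fell just under the threshold in DESeq2 (0.30), with DESeq2's size factors in edgeR (0.30), after edgeR's filter on low counts (0.29) and with only Pool 2 and Control in the fit (0.28). In Pool 2 replicate 1 Pcdhgc3 made up 26.4% of the gamma counts, against 15.9 to 18.6% in the other 19 libraries, and the part of other cell types in this was not tested.

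By cluster, 3 of 13 alpha members had a Log2 Fold Change above 0 in Pool 2 (median −0.25), 4 of 22 beta members (median −0.09) and 15 of 21 gamma members (median 0.08), beside 50.7% of all genes with a median of 0.003. Pool 2 replicate 1 had the lowest beta sum of all libraries (133 CPM) and the second lowest alpha sum. Without it, 6 of 13 alpha members (median −0.12), 10 of 22 beta members (median −0.0025) and 18 of 21 gamma members (median 0.12) were above 0. With the covariate for long and short transcripts the medians were −0.25 in the alpha, −0.08 in the beta and 0.06 in the gamma cluster. The log2 ratio of the mean summed alpha level was −0.12 with it and −0.02 without it, within the SD of 0.27 between replicates.

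Of the C-type genes, Pcdhac2 was at 32.1 ± 5.54 CPM in Pool 2 and 34.0 ± 6.87 in Control (SD), a Log2 Fold Change of −0.08 ± 0.17 (SE). That of Pcdhac1 was −0.28 ± 0.19, that of Pcdhgc4 0.16 ± 0.17 and that of Pcdhgc5 0.07 ± 0.11. Pcdhga12, upregulated in Pool 1, was at 0.25 ± 0.11 on the same scale here, and the value of Pcdhga2 was −0.03 ± 0.15. For Pcdha3 it was 0.21 ± 0.23. None of these passed the threshold.

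Control and Vehicle mice were compared to show what infused sRNAs of unaffected people changed against the carrier fluid. Of the 56 members, 1 was upregulated and none was downregulated, where 5.1% of all genes were called, 1.7% as upregulated and 3.41% as downregulated. The upregulated gene was Pcdhb9, the most highly expressed beta gene. It was at 14.8, 21.5, 16.8, 21.9 and 22.7 CPM in Control and at 15.7, 15.1, 16.0, 15.4 and 16.0 CPM in Vehicle.

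The Vehicle libraries were close together, and 4 Control libraries lay above all of them while Control replicate 1 lay below. The Log2 Fold Change of Pcdhb9 was 0.32 ± 0.13 (SE), with an unadjusted p of 0.0187 and an adjusted p of 0.734 in edgeR. Without Control replicate 2, 4 or 5 the fold fell under the threshold, at 0.29, 0.28 and 0.26. Against this Control group the value of Pcdhb9 was −0.22 ± 0.13 for Pool 1 and −0.21 ± 0.13 for Pool 2, neither past the threshold.

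In this comparison 11 of 13 alpha members (median 0.11), 13 of 22 beta members (median 0.06) and 2 of 21 gamma members (median −0.05) were above 0, beside 46.8% of all genes with a median of −0.01. With DESeq2's size factors 4 of 21 gamma members were above 0. Vehicle replicate 5 had the lowest alpha and gamma sums of the 20 libraries, and without it 6 of 13 alpha members were above 0 (median −0.0041) and the gamma median was −0.15. Without Control replicate 1 the alpha median was 0.25 and the gamma median −0.0014. With the covariate the alpha, beta and gamma medians were 0.27, 0.16 and −0.0039, and 3 members were called.

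Pool 2 and Pool 1 mice were compared directly, to ask whether the patient pools differed from each other. Of the 56 members 5 were lower in Pool 2 and none was higher, where 6.82% of all genes were called, 5.66% as higher and 1.16% as lower. They were the first Pcdha11 entry (Pcdha10 by its RefSeq position) and Pcdha7 in the alpha, Pcdhb11 in the beta, and Pcdhga2 and Pcdhga8 in the gamma cluster. No member had an adjusted p under 0.05, the smallest being 0.399 in edgeR and 0.241 in DESeq2, and the 5 called members were those with an unadjusted p under 0.05 in edgeR. Over all genes, 0 had an adjusted p under 0.05 in edgeR and 115 in DESeq2.

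Pcdhga2 was at 8.64, 10.4, 15.2, 12.1 and 14.9 CPM in Pool 2, against 14.8 to 17.8 CPM in Pool 1. Pool 2 replicates 3 and 5 lay within the Pool 1 range and the other 3 lay below it. The Log2 Fold Change was −0.43 ± 0.15 (SE), with an unadjusted p of 0.00987 and an adjusted p of 0.399 in edgeR. It was kept in every alternative, while Pool 2 and Control differed by −0.03 ± 0.15 for the same gene.

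Pcdhga8 was at 8.68, 10.9, 11.96, 10.3 and 12.5 CPM in Pool 2 and at 15.2, 12.1, 12.6, 13.1 and 17.5 CPM in Pool 1. Pool 2 replicate 5 overlapped with Pool 1 and the other 4 were below it. The Log2 Fold Change was −0.38 ± 0.14, with an unadjusted p of 0.0145 and an adjusted p of 0.425 in edgeR, and without Pool 1 replicate 5 it was −0.29 and not called.

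Pcdha7 was at 1.42, 2.06, 1.58, 1.46 and 2.28 CPM in Pool 2 and at 2.59, 2.38, 2.62, 2.71 and 2.16 CPM in Pool 1. Pool 2 replicate 5 lay within the Pool 1 range and the other 4 below it, a Log2 Fold Change of −0.50 ± 0.23 with an unadjusted p of 0.0368 and an adjusted p of 0.543 in edgeR. The call was lost without any of 6 libraries, Pool 1 replicates 1 (−0.48), 3 (−0.48) and 4 (−0.47) and Pool 2 replicates 1 (−0.43), 3 (−0.46) and 4 (−0.44).

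The first Pcdha11 entry was at 2.71, 2.65, 3.11, 3.28 and 2.24 CPM in Pool 1, and 4 of the Pool 2 libraries given above were below all of these. This gave a Log2 Fold Change of −0.49 ± 0.22, with an unadjusted p of 0.0357 and an adjusted p of 0.539 in edgeR. It was not called without Pool 1 replicate 3 (−0.45) or 4 (−0.42) or Pool 2 replicate 1 (−0.34) or 2 (−0.46).

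Pcdhb11 was at 4.07, 5.96, 4.58, 5.05 and 4.60 CPM in Pool 2 and at 6.84, 6.64, 4.85, 5.90 and 6.48 CPM in Pool 1. The groups overlapped, with Pool 2 replicates 2 and 4 above the lowest Pool 1 library. On the log2 scale Pool 2 minus Pool 1 was −0.34 ± 0.16, with an unadjusted p of 0.0475 and an adjusted p of 0.577 in edgeR. This call was kept without Pool 1 replicate 3 or Pool 2 replicate 2 and lost without each of the other 8 libraries, with values of −0.43 to −0.28 over the 10 fits, and it was lost with the covariate (−0.32).

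By cluster, 1 of 13 alpha members (median −0.27), 6 of 22 beta members (median −0.09) and 6 of 21 gamma members (median −0.10) had a Log2 Fold Change above 0 in Pool 2 against Pool 1, beside 53.5% of all genes with a median of 0.02. Without Pool 2 replicate 1 these were 2 of 13 (median −0.17), 10 of 22 (−0.04) and 10 of 21 (−0.04), and 2 members were called. The 3 medians were below 0 in each of the fits that left out a library, between −0.34 and −0.17 in the alpha, −0.18 and −0.04 in the beta and −0.16 and −0.04 in the gamma cluster. With the covariate the medians were −0.20, −0.016 and −0.07, and 4 members were called. The 5 Pool 1 libraries had alpha sums of 62.7 to 78.5 CPM and the Pool 2 libraries of 42.4 to 67.4 CPM. Marker sums moved between the same libraries. Those of 6 thalamic markers were 85.6 to 128 CPM in Pool 1 and 124 to 487 in Pool 2. For 6 astrocyte markers they were 1436 to 1673 and 1653 to 3063. For 6 CA1 markers they overlapped more widely, at 675 to 1377 and 632 to 1147, with medians of 1297 and 848. The part of these marker sums in the cluster medians was not tested.

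**Figure D5:**
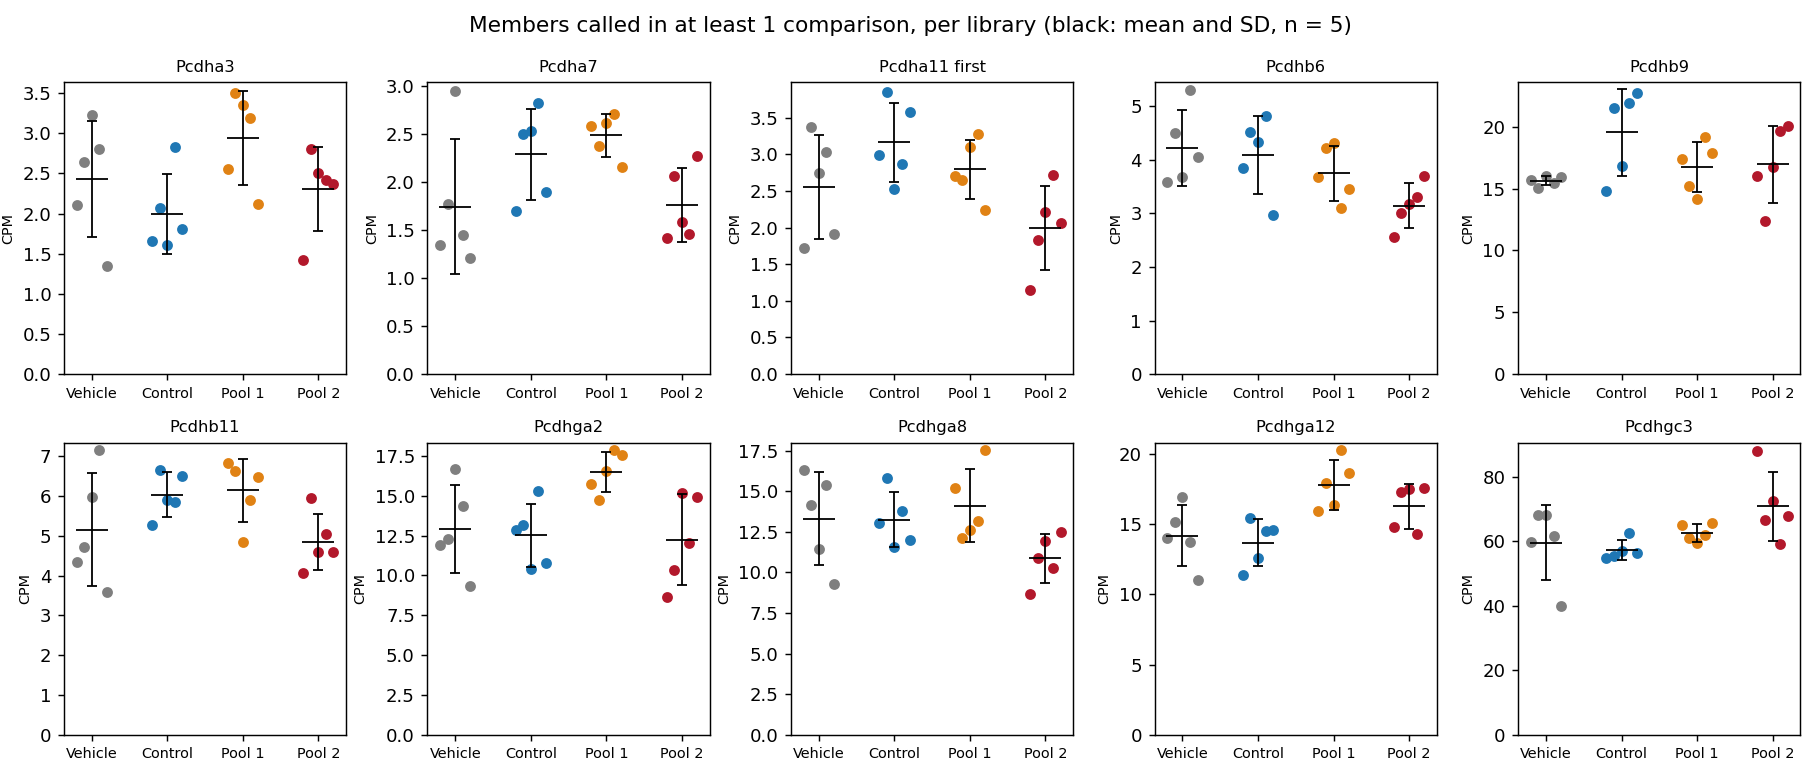
CPM in each library of the 10 members called in at least 1 of the 4 comparisons, by group, with mean and SD (n = 5) in black. Pool 1 lies above Control without overlap for Pcdhga12, and the highest Pcdhgc3 value, 88.1 CPM, is that of Pool 2 replicate 1.

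The median replicate spread of the members was slightly below that of all genes, which were not matched to them in count level. The biological coefficient of variation, the spread between replicates beyond counting error, had a median of 0.187 over the 56 members and 0.222 over all genes. It was 0.233 in the alpha cluster, whose genes have the fewest counts, 0.170 in the beta and 0.169 in the gamma cluster. By this coefficient Pcdhb17 was the lowest member (0.129), with Pcdhb14 at 0.134. The plain coefficient of variation of CPM over the 20 libraries, which also holds group differences and counting error, was lowest for Pcdhb14 (10.3%).

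Genes that act on the clusters or with their proteins were counted by the same threshold, which 3.48% of all genes passed in Pool 1 and 6.22% in Pool 2 against Control, 5.1% in Control against Vehicle and 6.82% in Pool 2 against Pool 1. Of 20 regulators of the clusters, which include the looping factors Ctcf and Rad21, the DNA methyltransferase Dnmt3b, the chromatin protein Smchd1 and the histone methyltransferase Setdb1, none was called in Pool 1, Pool 2 or Control against its reference, with medians of −0.02, −0.03 and −0.05. In Pool 2 against Pool 1, Dnmt3b was higher, at 1.12 ± 0.281 against 0.769 ± 0.127 CPM. Its Log2 Fold Change was 0.54 ± 0.22, with an unadjusted p of 0.0215 and an adjusted p of 0.475 in edgeR.

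Of 20 binding partners and effectors, 1 was downregulated in Pool 1, 1 was upregulated in Pool 2 and none was called in Control against Vehicle. Pdcd10, which binds gamma protocadherins inside the cell, was at 22.1 ± 3.41 CPM in Pool 1 and 27.2 ± 4.04 in Control, a Log2 Fold Change of −0.30 ± 0.12 with an unadjusted p of 0.0179 in edgeR (adjusted p 0.917). It was at 22.2 ± 3.18 CPM in Vehicle and 22.4 ± 1.68 in Pool 2, so that Control had the highest mean of the 4 groups. Control exceeded Vehicle by 0.29 ± 0.12 on the log2 scale and Pool 2 differed from Control by −0.28 ± 0.12, both under the fold threshold, with unadjusted p of 0.0214 and 0.0264 and adjusted p of 0.734 and 0.580 in edgeR. The receptor tyrosine kinase Ret was at 5.40 ± 2.98 CPM in Pool 2, with a range of 3.20 to 10.4, and at 2.56 ± 1.09 in Control, with a range of 1.39 to 4.25. Its Log2 Fold Change was 1.07 ± 0.34, with an unadjusted p of 0.00461 and an adjusted p of 0.479 in edgeR, and it was also higher in Pool 2 than in Pool 1 (0.85 ± 0.34).

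None of 12 protocadherins outside the clusters was called in any of the 4 comparisons. Of 13 neighbours of the clusters on the chromosome, read-through models included, 8 had an entry, and 1 of these was called. Arap3 was at 13.5 ± 1.66 CPM in Pool 2 and 10.7 ± 1.23 in Control, a Log2 Fold Change of 0.33 ± 0.13 with an unadjusted p of 0.0168 and an adjusted p of 0.546 in edgeR.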

How the data were processed

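Per the labels and the study's methods, polyadenylated RNA was made into stranded libraries and read in single-end reads. FastQC 0.11.5 and STAR are named in the submitters' processing notes, with the mm10 build. The authors counted reads per gene with STAR on a GENCODE annotation, dropped genes with very low sums and deposited raw counts, with sequencing rounds summed. The strand setting of the counting was not given in the sources used here, so reads of a gene and of an antisense partner cannot be told apart.

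From the deposited counts, edgeR 4.0.16 under R 4.3.3 computed TMM factors and the quasi-likelihood test (glmQLFit with robust estimation, then glmQLFTest), in 1 fit of 4 groups and 20 libraries, with Benjamini-Hochberg adjustment over all 25190 genes. The call threshold, an absolute Log2 Fold Change of 0.3 and an unadjusted p of 0.05, is that of the study. SE is the Log2 Fold Change divided by the root of the F statistic. CPM values are TMM-scaled. Unshared exon bases came from GENCODE M21, on the genome build of the files, while the study names release M20 for its counting. CPM per kb therefore rest on another release than the counts. RefSeq on GRCm38.p6 gave the places of Pcdha10 and Pcdha11.

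Named are each member called in any comparison, the 3 highest per kb and the lowest by CPM in each cluster, the C-type members, and pathway genes called in either pool against Control. Dnmt3b, Pcdhb14, Pcdhgb8 and the second Pcdha11 entry were named after their values were seen. The members and lists were chosen with earlier results of these data known. In simulated counts for Pool 1 against Control over 25190 genes, 62.7% of genes changed by 0.5 on the log2 scale, 97.0% changed by 1 and 3.56% of unchanged genes were called. The labels number the replicates without saying that each is a separate mouse, so p-values measure the spread between these libraries, and no replicates agreed within sampling noise. Alternatives were DESeq2 1.42.0, its size factors in edgeR, filters on low counts, the default spread estimate, fits of 2 groups, a replicate block and leaving out libraries. The covariate for transcript length was added after seeing the data. No sequence of these genes is shown.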

Additional observations from a re-analysis of the deposited data

Results flagged for a closer look

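Of 100 groups of 5 libraries, taken over the named members and the 3 cluster sums, 3 held a library far from the other 4. Some such libraries arise by chance. The groups share libraries, and the sums contain the members, so the count of 3 is a description and not a test. Pcdhgc4 in Pool 1 replicate 5 was at 11.4 CPM, against 8.70 to 9.28 CPM in the other Pool 1 libraries. Pcdhgc4 in Pool 2 replicate 1 was at 6.17 CPM, against 9.39 to 10.6 in the other Pool 2 libraries. The summed alpha level of Pool 2 replicate 1 was 42.4 CPM, against 63.0 to 67.4 CPM in the rest of its group. In that library the microglial and astrocyte markers were the highest of the 20, and the interneuron and neocortical markers the lowest. The part of these markers in the low value was not tested.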

How the results depend on the processing

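The number of members called was 3 for Pool 1 against Control, 3 for Pool 2 against Control, 1 for Control against Vehicle and 5 for Pool 2 against Pool 1. Leaving out 1 library at a time gave 3 to 5, 1 to 4, 0 to 2 and 2 to 5. The lowest counts came for Pool 2 against Control without Control replicate 2 or Pool 2 replicate 1 (1 each), for Control against Vehicle without Control replicate 2, 4 or 5 (0 each) and for Pool 2 against Pool 1 without Pool 1 replicate 4 or Pool 2 replicate 1 (2 each). The highest, 5, came for Pool 1 against Control without Control replicate 4 or Pool 1 replicate 3. Without Pool 2 replicate 1 and Vehicle replicate 4 together the counts were 1 for Pool 2 against Control, 2 for Control against Vehicle and 2 for Pool 2 against Pool 1. With only the groups compared in the fit, Pool 2 against Control had 5, and with the covariate for transcript length Control against Vehicle had 3. The cause of these shifts was not tested. Over the named genes, 424 values under an alternative kept direction and side of the threshold, 64 lost a call, 1 gained one and 5 changed sign. Those were Pcdhac1 in Pool 1 against Control, at −0.12 to 0.061 over the fits that left out a library and above 0 without Control replicate 3, Control replicate 4 or Pool 1 replicate 5, and Pcdhac2 in Pool 2 against Control, at −0.19 to 0.015 and above 0 without Pool 2 replicate 1, alone or with Vehicle replicate 4 (0.015 in both). The log2 ratios of the summed levels moved by less than the SD between replicates under each alternative tried for them.

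The replicate numbers were not taken to pair the libraries, since no comparison had all 5 same-numbered pairs correlated above 0.1 in their deviations. Pairs above it were 1 of 5 in Pool 1 against Control, 4 of 5 in Pool 2 against Control (median 0.17, lowest −0.24), 0 of 5 in Control against Vehicle and 2 of 5 in Pool 2 against Pool 1. With the replicate number as a replicate block the counts were 3, 3, 1 and 6.

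Depth limited Pcdha8 and Pcdhb1, with at most 24 and 8 counts per library, and no statement on their change is made from these data.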
